A study of Rattus norvegicus with 5 samples.

Results

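The phagocyte NADPH oxidase is the enzyme with which microglia, macrophages and neutrophils make superoxide. The genes described here were fixed by name as Cybb, Cyba, Ncf1, Ncf4, Nox4 and Hvcn1, and 5 of these 6 were found by symbol among the 17321 genes of the count table. Hvcn1 is not analysed here. The series sequenced total RNA of lumbar dorsal horn (segments L4 to L6), where sensory fibres of the hindlimb end, from Sprague Dawley rats 9 days after surgery. The surgery was CCI, short for chronic constriction injury, in which loose ligatures around a peripheral nerve produce lasting pain behaviour, or SHAM, in which the nerve is left without them. There were 3 CCI and 2 SHAM libraries. The labels name no animals and give no age, so the p-values reflect the spread between libraries, which may be technical.

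As background, the enzyme has a membrane core of gp91phox, the electron-carrying subunit encoded by Cybb and also called NOX2, and p22phox, encoded by Cyba, which holds it stable in the membrane. In a resting cell the other subunits wait in the cytosol. On activation cytosolic subunits, among them p47phox (Ncf1) and p40phox (Ncf4), move to the membrane together with the GTPase RAC2 or RAC1, and electrons then pass from NADPH to oxygen. Nox4 encodes a related oxidase that also needs p22phox but not the cytosolic subunits, releases mainly hydrogen peroxide, and is known from kidney, vascular and connective tissue cells rather than from phagocytes. In the spinal cord NOX2 is known mainly from microglia.

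Promoter sequences are shown first because the genes that rose after CCI include Cybb, whose promoter is a textbook target of PU.1 and IRF factors. They were taken from RefSeq on the build GRCr8, and run 5′ to 3′ on the gene's own strand from 250 bases before the annotated start to 50 bases after its first position. Of the 6 listed genes, 4 had an entry. Cybb lies on the minus strand at chrX:16065016-16065315, Ncf1 on the plus strand at chr12:28121635-28121934, Cyba on the minus strand at chr19:67404165-67404464 and Nox4 on the plus strand at chr1:150313639-150313938. Capitals mark matches, on either strand, to GAGGAA (PU.1 and other ETS factors), the ETS-IRF composite (GGAA, any 2 bases, GAAA), the interferon-stimulated element (GAAA, any 2 bases, GAAA) and TGANTCA (AP-1), where N is any base.
Cybb: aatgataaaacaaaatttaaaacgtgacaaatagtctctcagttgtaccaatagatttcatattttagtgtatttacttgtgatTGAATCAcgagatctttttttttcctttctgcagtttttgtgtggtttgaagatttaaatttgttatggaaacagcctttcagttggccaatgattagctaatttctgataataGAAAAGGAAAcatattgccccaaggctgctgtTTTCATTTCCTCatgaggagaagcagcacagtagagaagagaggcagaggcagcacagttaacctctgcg
Ncf1: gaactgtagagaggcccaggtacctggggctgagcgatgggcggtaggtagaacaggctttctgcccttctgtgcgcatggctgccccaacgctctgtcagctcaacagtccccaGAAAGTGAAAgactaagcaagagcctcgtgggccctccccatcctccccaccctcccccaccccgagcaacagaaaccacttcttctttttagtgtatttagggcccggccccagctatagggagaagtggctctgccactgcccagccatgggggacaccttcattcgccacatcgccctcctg
Cyba: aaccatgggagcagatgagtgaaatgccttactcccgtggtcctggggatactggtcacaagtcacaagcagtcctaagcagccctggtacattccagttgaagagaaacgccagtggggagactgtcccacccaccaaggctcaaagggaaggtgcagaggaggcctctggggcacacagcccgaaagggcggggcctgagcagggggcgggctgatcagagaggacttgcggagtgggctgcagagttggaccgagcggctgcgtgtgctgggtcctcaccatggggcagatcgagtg
Nox4: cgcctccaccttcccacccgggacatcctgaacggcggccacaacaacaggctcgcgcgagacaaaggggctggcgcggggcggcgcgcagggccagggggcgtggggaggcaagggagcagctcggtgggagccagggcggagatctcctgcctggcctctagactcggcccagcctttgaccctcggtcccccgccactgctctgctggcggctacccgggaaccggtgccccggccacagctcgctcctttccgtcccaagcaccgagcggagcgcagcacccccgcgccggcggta

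The Cybb window held 1 match to each of the 4 motifs. Its AP-1 match began 166 bases before the start and its interferon-stimulated match 52 bases before it. The composite match began 20 bases before the start on the minus strand and overlapped the GAGGAA match, also on the minus strand, which began 14 bases before the start. Ncf1 held 1 interferon-stimulated match, 135 bases before its start, and no other match, while none of the 4 motifs was found in the windows of Cyba and Nox4. Among 33469 promoter windows of 300 bases in the same table, GAGGAA was found in 27.6%, the composite in 2.94%, the interferon-stimulated element in 3.92% and the AP-1 motif in 7.33%. The windows also differed in base composition, with 35.7% G and C in Cybb against 61.0% in Cyba, 59.7% in Ncf1 and 73.0% in Nox4. A match of letters is a description and does not show that a factor binds there.

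The libraries held 20053353 to 23673198 estimated counts each, expressed below as CPM, which are counts relative to the library total after scaling by the trimmed mean of M-values. CCI 3 stood apart in its ribosomal RNA rows, which took 16.0% of its counts against 2.18% to 2.71% elsewhere. The 18 microglia markers checked were detected in every library, with a summed level of 1682 to 1939 CPM in CCI and 620 to 717 CPM in SHAM. EdgeR's quasi-likelihood test called 14 of them higher and none lower, beside 2.59% and 0.26% of all tested genes. The 15 dorsal horn neuron markers had counts in every library, and edgeR's quasi-likelihood test called none of them (2 had an unadjusted p below 0.05, and the likelihood ratio test, DESeq2 and limma-voom called 1, 1 and 0). Of 7 tested motor neuron markers 4 were called lower by edgeR's quasi-likelihood test, beside 0.26% of all tested genes. The motor neuron list summed to 130 to 379 CPM in CCI and 574 to 832 CPM in SHAM. The oligodendrocyte list summed to 27905 to 33544 CPM in CCI and 38819 to 39607 CPM in SHAM, and none of its 10 genes was called by edgeR's quasi-likelihood test, the likelihood ratio test, DESeq2 or limma-voom (8 had an unadjusted p below 0.05; median log2 fold change -0.36). Of 10 astrocyte markers Gfap rose (1.04, adjusted p = 0.0138) and Slc7a10 fell (-0.76, adjusted p = 0.0140), both named after their values were seen. The part of these differences in tissue in the results below was not tested. In tissue RNA of this kind, more cells of a type and more RNA per cell cannot be told apart.

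Genes of the phagocyte oxidase rose after CCI, from the membrane core to the cytosolic subunits. They were tested with edgeR's quasi-likelihood test over all 13478 genes with enough counts and Benjamini-Hochberg adjustment. Calls needed a fold of 1.5 or more and an adjusted p no higher than 0.05, as in the series' own design. Of the 5 genes, all of which passed the count filter, 4 were called higher (Cybb, Cyba, Ncf1 and Ncf4), Nox4 was not called, and none was called lower. Among all tested genes 349, or 2.59%, were called higher and 35, or 0.26%, lower, 2.85% in all. Every CCI library was above every SHAM library in 18.6% of all tested genes, and in 4 of the 5 members. The members were chosen with earlier results of these data known, so these counts are a description.

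Cybb, the electron-carrying core, was at 18.1 CPM in CCI 1, 36.6 CPM in CCI 2 and 19.7 CPM in CCI 3, against 4.86 CPM in SHAM 1 and 4.45 CPM in SHAM 2. Every CCI library was above both SHAM libraries, and CCI 2 was the highest, with 921 counts against 392 and 372 in the other CCI libraries. The CCI mean was 24.8 ± 10.2 CPM (SD, n = 3), and the SHAM mean was 4.66 ± 0.295 CPM (SD, n = 2). The log2 fold change was 2.42 (SE 0.36), a 5.33-fold rise with an edgeR adjusted p of 0.0197. Without CCI 2 the log2 fold change of Cybb was 2.02.

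Cyba, the membrane partner of both NOX2 and NOX4, was at 14.1 CPM in CCI 1, 22.1 CPM in CCI 2 and 12.7 CPM in CCI 3, against 3.73 CPM in SHAM 1 and 6.20 CPM in SHAM 2. The groups did not overlap, CCI 2 was again the highest, and the SHAM libraries differed more from each other than they did for Cybb. Cyba rose by 1.72 on the log2 scale (SE 0.32, 3.30-fold, edgeR adjusted p = 0.0364). On the deposited per-length table, tested with limma, the change of Cyba was 1.70 to 1.73 on the log2(value + pseudocount) scale and was not called, with adjusted p of 0.0928 to 0.101.

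Ncf1, the organiser that carries the cytosolic complex to the membrane, was at 82.5 CPM in CCI 1, 97.9 CPM in CCI 2 and 107 CPM in CCI 3, against 57.4 CPM in SHAM 1 and 52.7 CPM in SHAM 2. The groups did not overlap, and CCI 3 rather than CCI 2 was the highest. Ncf1 rose by 0.80 (SE 0.13, 1.74-fold, edgeR adjusted p = 0.0128), the smallest rise among the 4 called genes. Its estimated counts were fractional (1263.16 and 1054.99 in SHAM), so some of its reads also fitted another row and its level is uncertain, which holds for none of the other 4 members.

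Ncf4, a cytosolic subunit that binds a membrane lipid of phagosomes, had the largest rise. It had 124 counts in CCI 1, 139 in CCI 2 and 65 in CCI 3, against 11 in SHAM 1 and 13 in SHAM 2. In the same order these are 5.74, 5.52 and 3.45 CPM against 0.50 and 0.65 CPM. The lowest CCI library, CCI 3, was still above both SHAM libraries. The log2 fold change was 3.09 (SE 0.37, 8.50-fold, edgeR adjusted p = 0.00266), and it rests on few counts in SHAM.

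**Figure D1:**
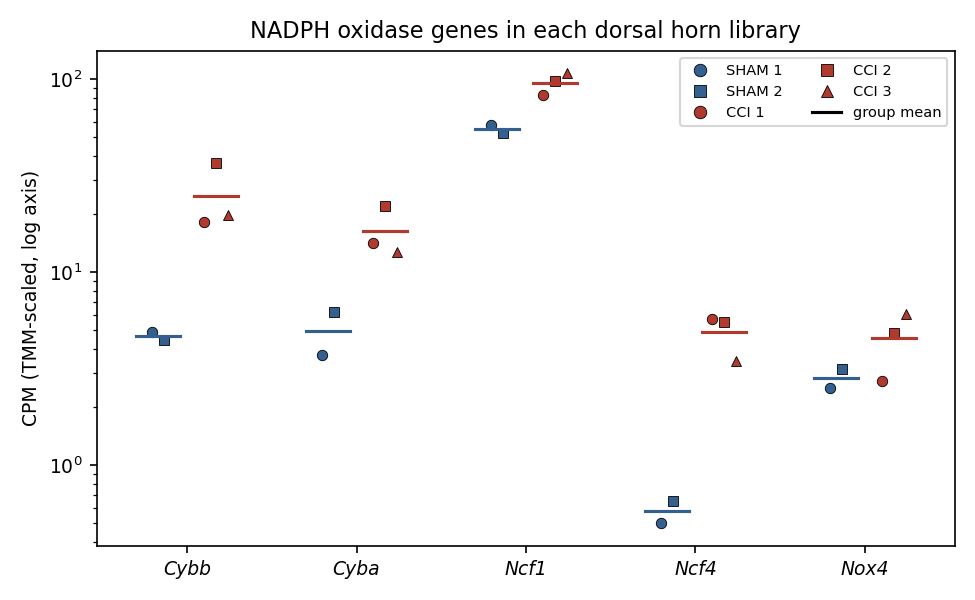
CPM (log axis) of the 5 genes in each library, with SHAM in blue, CCI in red and a line at each group mean. For Cybb, Cyba, Ncf1 and Ncf4 all 3 CCI libraries lie above both SHAM libraries; for Nox4 the CCI 1 library lies among the SHAM libraries.

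Nox4, the oxidase of non-phagocytic cells, did not pass the test. It was at 2.73 CPM in CCI 1, 4.80 CPM in CCI 2 and 6.05 CPM in CCI 3, against 2.50 CPM in SHAM 1 and 3.15 CPM in SHAM 2. CCI 1 lay between the SHAM libraries, so the groups overlapped, while CCI 2 and CCI 3 were above them. The log2 fold change was 0.68 (SE 0.35, edgeR adjusted p = 0.384), on 55 to 121 counts per library. Without CCI 1 it was 0.94 (adjusted p = 0.0858), and without CCI 3 it was 0.42.

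The calls of Cybb, Cyba, Ncf1 and Ncf4 were all lost without SHAM 1 and also without SHAM 2, each of which leaves a single SHAM library assumed to vary like the CCI libraries. The adjusted p was then 0.292 and 0.254 for Cybb, 0.337 and 0.113 for Cyba, 0.150 and 0.192 for Ncf1 and 0.0805 and 0.0534 for Ncf4 (without SHAM 1 and without SHAM 2). Their log2 fold changes stayed positive, and the number of all genes called fell from 384 to 61 and 78.

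Levels of different genes can be compared only per transcript length, for which the authors' table named TPM was used. In SHAM the order was Ncf1 (24.6 ± 1.58, SD, n = 2), Cyba (11.9 ± 3.87), Cybb (3.61 ± 0.255), Nox4 (1.67 ± 0.262) and Ncf4 (0.522 ± 0.0912), and no neighbours in that order overlapped. In CCI the levels were 43.7 ± 5.95 (SD, n = 3) for Ncf1, 39.9 ± 13.4 for Cyba, 19.6 ± 8.22 for Cybb, 4.53 ± 1.16 for Ncf4 and 2.73 ± 1.02 for Nox4. There Ncf1 and Cyba overlapped, as did Ncf4 and Nox4, while the lowest Cyba value (30.6) was close above the highest Cybb value (29.1). Ncf4 was below Nox4 in both SHAM libraries and in CCI 3, and above it in CCI 1 and CCI 2.

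**Figure D2:**
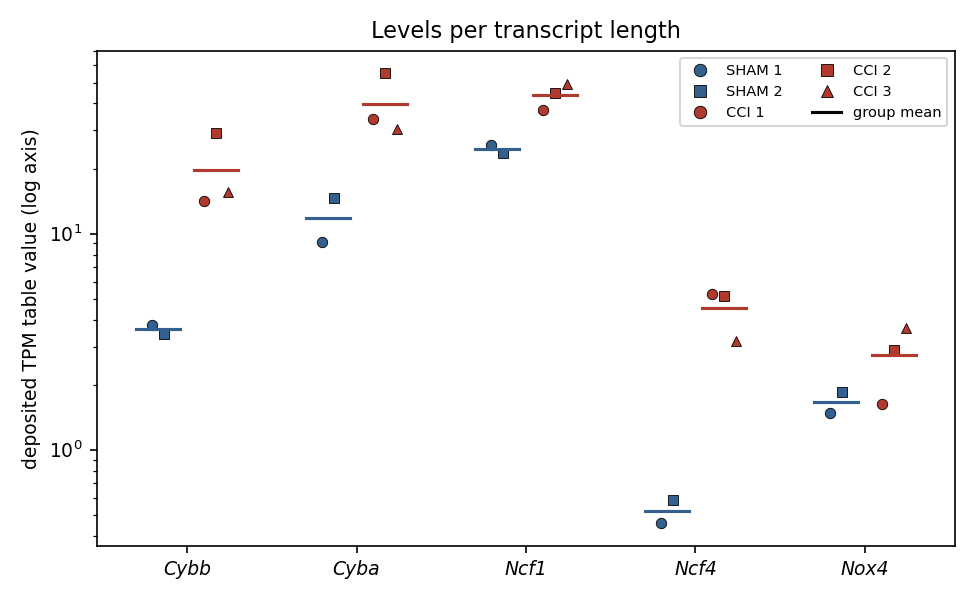
Values of the 5 genes in the deposited per-length table (log axis) by library, with SHAM in blue, CCI in red and lines at group means. Ncf1 is above Cyba in every library but CCI 2, and Cybb moves from 3.43 and 3.79 in SHAM to 14.2 to 29.1 in CCI.

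Ratios between subunits were computed in each library, and none of their differences between groups passed the test. Per length, Ncf1 was 6.79 and 6.86 times the level of Cybb in SHAM 1 and SHAM 2, but 2.63 times in CCI 1, 1.54 times in CCI 2 and 3.14 times in CCI 3. On the log2 scale the ratio of Ncf1 to Cybb was 2.77 ± 0.00970 (SD, n = 2) in SHAM and 1.22 ± 0.536 (SD, n = 3) in CCI, a CCI minus SHAM difference of -1.55. The ratio of Nox4 to Cybb had a CCI minus SHAM difference of -1.73, that of Cyba to Cybb -0.63 and that of Ncf4 to Cybb 0.73. In all 4 ratios, which share Cybb as denominator, the groups did not overlap, and no such share was computed for other genes. For Ncf4 to Cybb the gap was narrow, with -2.50 in CCI 2 and -2.55 in SHAM 2. The two-sided exact permutation p was 0.1 for Ncf1 and Cyba and 0.2 for Ncf4 and Nox4, where 0.1 is the smallest value that 10 splits of 5 libraries allow, and 0.225 for each after adjustment over the 9 ratios computed here. The difference of Cyba to Cybb rested on SHAM 2, without which it was -0.21, and that of Ncf4 to Cybb fell to 0.05 with a pseudocount of 0.5, since Ncf4 was near 0.5 in SHAM.

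Each member was also set against the mean log2(CPM + 0.5) of the 18 microglia markers in the same library, and no difference between groups passed the test here either. The members were not tested against each other. That marker mean was 5.83 in CCI 1, 6.05 in CCI 2 and 5.88 in CCI 3, against 4.39 in SHAM 1 and 4.64 in SHAM 2. Cybb minus this mean was -1.61 in CCI 1, -0.84 in CCI 2 and -1.54 in CCI 3, against -1.96 in SHAM 1 and -2.34 in SHAM 2, a CCI minus SHAM difference of 0.82. The corresponding difference was 0.90 for Ncf4 and 0.21 for Cyba, whose groups overlapped. It was -0.62 for Ncf1 and -0.86 for Nox4, whose CCI values all lay below their SHAM values. Because the marker mean was higher in every CCI library, a gene of unchanged CPM would also lie lower in CCI by this measure. The share of other genes without overlap was not computed. The exact permutation p (two-sided) was 0.1 for Cybb and Ncf1, 0.2 for Ncf4 and Nox4 and 0.5 for Cyba, and after the same adjustment 0.225 for each but Cyba (0.5). Each difference had the same sign on the per-length table, with a pseudocount of 0.1 and without each library in turn. The difference of Cyba was 0.01 without SHAM 1 and 0.05 without CCI 2, and that of Ncf4 was 1.44 with a pseudocount of 0.1.

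**Figure D3:**
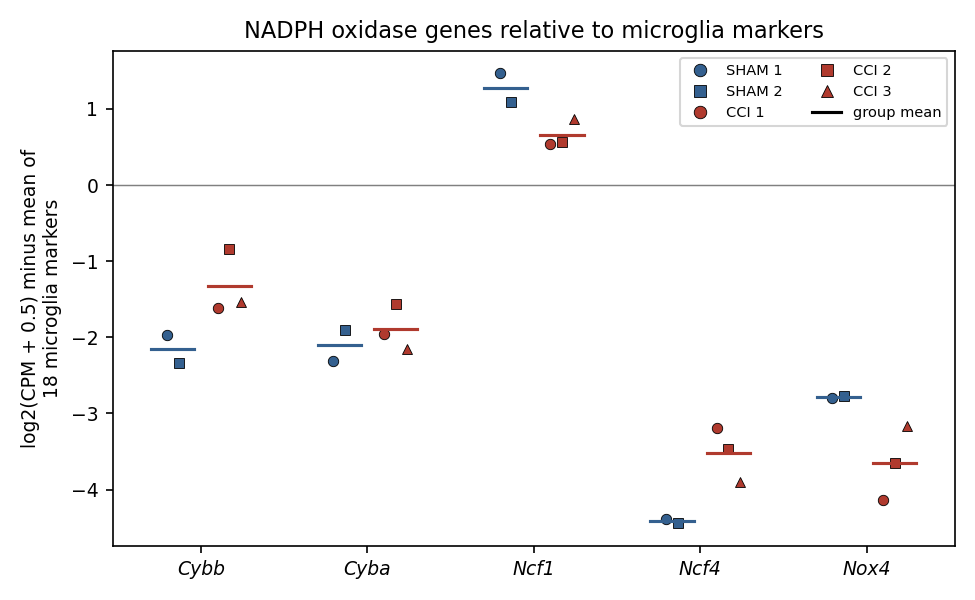
Each gene's log2(CPM + 0.5) minus the mean of 18 microglia markers in the same library, with SHAM in blue, CCI in red and lines at group means; 0 would be a level equal to the marker mean. Cybb and Ncf4 sit higher in CCI than in SHAM, Ncf1 and Nox4 sit lower, and the groups of Cyba overlap. A gene of unchanged CPM would also sit lower in CCI, since the marker mean is higher there.

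Other immune cells were looked for by their markers. Of 13 neutrophil markers, Ctsg was at 0 in every library, Elane was at most 0.0530 CPM and Mpo at most 0.159 CPM, and S100a8 was at 0 in SHAM and 0.0397 to 0.212 CPM in CCI. The summed level of the neutrophil list was 21.3 to 23.0 CPM in CCI and 7.54 to 8.77 CPM in SHAM, of which Csf3r made up 14.6 to 17.7 CPM and 3.60 to 3.86 CPM. The monocyte list summed to 187 to 299 CPM in CCI and 139 to 150 CPM in SHAM. Of its 5 tested genes edgeR's quasi-likelihood test called 1 higher, beside 2.59% of all tested genes. This was Plac8 (30.5 to 55.8 CPM against 0.773 and 1.40 CPM), named after its values were seen. Vcan (log2 fold change 0.07), Nr4a1 (0.26), Spn (0.82) and Fn1 (1.13) were not called. The border macrophage list summed to 76.5 CPM in CCI 1, 122 and 142 CPM in CCI 2 and CCI 3, and 80.4 to 83.1 CPM in SHAM, with none of 8 tested genes called by edgeR's quasi-likelihood test (1 had an unadjusted p below 0.05, and the likelihood ratio test, DESeq2 and limma-voom called 3, 1 and 1). The T and NK cell list summed to 23.5 CPM in CCI 2, 6.99 and 9.02 CPM in the other CCI libraries, and 5.82 and 6.05 CPM in SHAM. CCI 2, the highest library for Cybb and Cyba, was thus the highest here. It was also the highest for the microglia, neutrophil, endothelial, pericyte and smooth muscle, fibroblast and dorsal horn neuron lists. CCI 3 was the highest for the monocyte, border macrophage, B cell and Schwann cell lists. The B cell list summed to 5.60 CPM in CCI 1, 8.38 CPM in CCI 2 and 13.9 CPM in CCI 3, against 7.64 and 6.15 CPM in SHAM. The part of these cells in the rise of the oxidase genes was not tested.

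Nox4 is known from vascular and connective tissue cells, whose markers were checked beside it. The fibroblast list summed to 208 CPM in CCI 1, 941 CPM in CCI 2 and 808 CPM in CCI 3, against 221 and 262 CPM in SHAM. The Schwann cell list summed to 504 CPM in CCI 1, 683 CPM in CCI 2 and 1128 CPM in CCI 3, against 493 and 515 CPM in SHAM. As for Nox4, CCI 2 and CCI 3 lay above both SHAM libraries in these lists, and CCI 1 did not in the fibroblast list and lay between them in the Schwann cell list. EdgeR's quasi-likelihood test called none of 12 fibroblast and none of 13 Schwann cell markers (2 and 4 had an unadjusted p below 0.05; the likelihood ratio test called 2 and 2, DESeq2 1 and 0, and limma-voom none). The endothelial list summed to 429 to 518 CPM in CCI and 409 to 435 CPM in SHAM, and the pericyte and smooth muscle list to 258 to 365 CPM and 271 to 303 CPM. With the mean of the Schwann cell markers as a covariate, the log2 fold change of Nox4 was -0.01 (adjusted p = 0.999). Under that covariate Ncf4 kept its call (3.37, adjusted p = 0.00624), while Cybb (2.25, adjusted p = 0.169), Cyba (1.63, adjusted p = 0.252) and Ncf1 (0.61, adjusted p = 0.112) lost theirs. The number of all genes called fell from 384 to 180. The covariate was 3.49 in CCI 1, 4.47 in CCI 2 and 5.05 in CCI 3, against 3.30 and 3.69 in SHAM. The covariate is therefore partly tied to the group. Within the list Sox10 (-0.32), Cdh19 (-0.30) and L1cam (-0.08) had negative log2 fold changes and the other markers positive ones. The part of these cells in the Nox4 values was not tested.

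**Figure D4:**
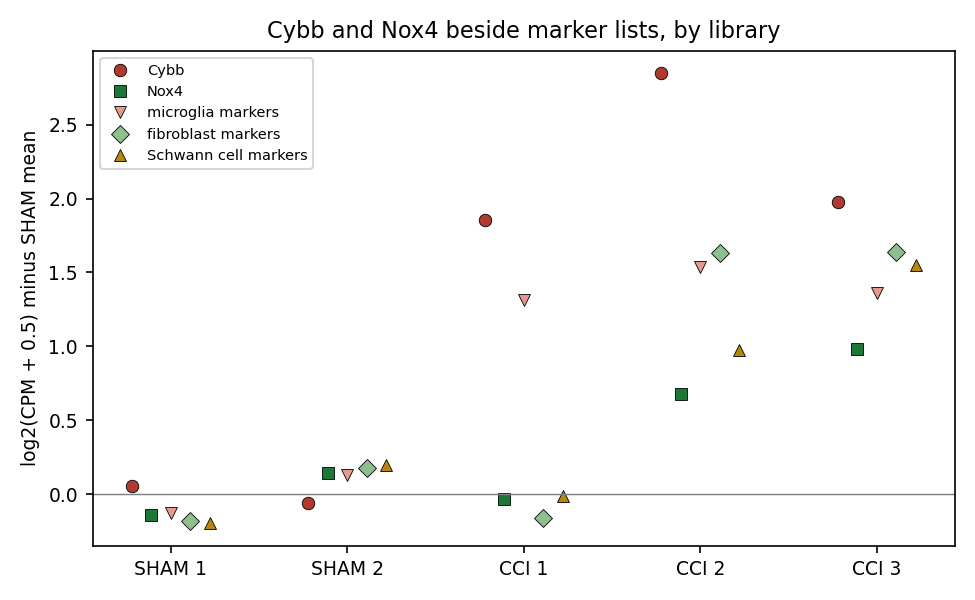
Log2(CPM + 0.5) of Cybb and Nox4 and mean log2(CPM + 0.5) of the microglia, fibroblast and Schwann cell markers, each minus its own SHAM mean, by library. Cybb and the microglia markers are up in all 3 CCI libraries, and Nox4, like the fibroblast and Schwann cell markers, is near its SHAM level in CCI 1 and higher in CCI 2 and CCI 3.

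The genes whose pattern over the 5 libraries was most like that of each member were found among 12755 tested genes with a mean of at least 1 CPM. Likeness was the root mean square difference between log2(CPM + 0.5) profiles, each centred on its own mean. For Cybb the nearest were Ifi47 (0.0844), Irf8 (0.134) and Tlr1 (0.136), and for Cyba they were Plcg2 (0.103), Sash3 (0.108) and Traf3ip3 (0.124). Ncf4 was nearest to Tuba1c (0.153), Lat2 (0.183) and C1qb (0.211). Ncf1 was nearest to Arl11 (0.0507), Chsy1 (0.0526) and Cubn (0.0545), and Nox4 to Sfrp1 (0.0760), Ebf2 (0.0882) and Bgn (0.0948). Among the members, Ncf4 was the one most like Cybb, with a difference of 0.359 that would rank 68 among the 12755 genes. The member most like Ncf1 was Nox4 (0.274), which would rank only 982 among the 12755 genes.

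The remaining parts of the enzyme and the proteins that switch it on were taken as a list of 28 genes, of which 26 were tested. Of these 9 were called higher and none lower, beside 2.59% and 0.26% of all tested genes. The median log2 fold change of the list was 0.38 against 0.01 over all tested genes. Among those with the smallest p were Vav1, an exchange factor that loads RAC with GTP (2.39, SE 0.20), and the Src family kinases Fgr (2.13, SE 0.22) and Lyn (1.57, SE 0.17), with edgeR adjusted p between 0.0006 and 0.00163. Lyn was flagged for fractional counts, but these were whole to the digits kept (956, 1471 and 781 in CCI, 351 and 329 in SHAM). The following called genes are named after their values were seen. Pla2g4a, a phospholipase whose product arachidonic acid helps to activate the enzyme, rose by 1.30, Pik3r5, a PI3 kinase subunit of leukocytes, by 1.49, and Prkcd, a kinase that phosphorylates p47phox, by 0.60 with fractional counts. The Prkcd call was lost without CCI 3, where its change of 0.54 was under the fold threshold, and with the Schwann cell covariate (adjusted p = 0.228).

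Rac2, the GTPase of blood cells, was at 13.7 CPM in CCI 1, 26.8 CPM in CCI 2 and 14.1 CPM in CCI 3, against 1.77 CPM in SHAM 1 and 3.25 CPM in SHAM 2. Like Cybb and Cyba it was highest in CCI 2, and it rose by 2.87 (SE 0.44, 7.29-fold, edgeR adjusted p = 0.0256), a call that was lost without TMM scaling (adjusted p = 0.0811) and with the Schwann cell covariate (adjusted p = 0.17). Rac1, the GTPase that most cells use, was 78.1 to 103 CPM in CCI and 74.2 to 75.4 CPM in SHAM. Its change of 0.23 (SE 0.13) did not pass the test (adjusted p = 0.438). Cybc1, the chaperone that gp91phox needs in the endoplasmic reticulum, was 36.4 to 41.9 CPM in CCI and 34.9 to 35.5 CPM in SHAM, and its change of 0.16 (SE 0.11) did not pass either (adjusted p = 0.506). Rac1, Cybc1 and Rac2 were likewise named after their values were seen, as parts or direct partners of the enzyme.

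Transcription factors known to act on phagocyte oxidase genes were a list of 12, of which 11 were tested. Of these 4 were called higher and none lower (median log2 fold change 0.68), beside 2.59% and 0.26% of all tested genes. Spi1, which encodes PU.1, was at 12.6 CPM in CCI 1, 12.3 CPM in CCI 2 and 10.9 CPM in CCI 3, against 3.27 CPM in SHAM 1 and 3.75 CPM in SHAM 2, and rose by 1.76 on the log2 scale (SE 0.18, edgeR adjusted p = 0.00146). Irf8 was at 20.6 CPM in CCI 1, 32.6 CPM in CCI 2 and 18.6 CPM in CCI 3, against 4.18 CPM in SHAM 1 and 4.45 CPM in SHAM 2, and rose by 2.47 (SE 0.28). The groups did not overlap for either gene, and Irf8, like Cybb, was highest in CCI 2. Cebpa rose by 1.44 (SE 0.17), with fractional counts. Cebpb rose by 0.71 (SE 0.15, edgeR adjusted p = 0.0462), and its estimated counts were almost whole (348.999, 495.999 and 399 in CCI, 260 and 228 in SHAM). The Cebpb call was lost with another scaling (RLE, adjusted p = 0.0529), with limma-voom (adjusted p = 0.0771), without CCI 2 (adjusted p = 0.0662) and without CCI 3 (adjusted p = 0.102).

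**Figure D5:**
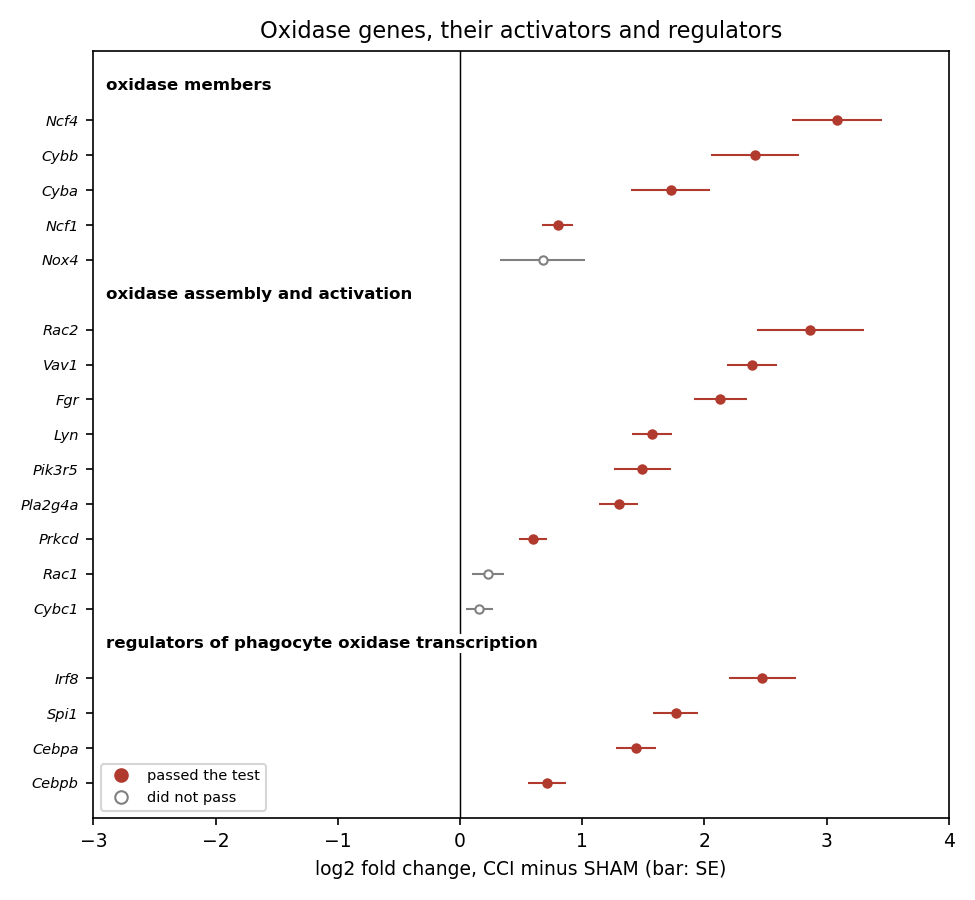
Log2 fold change, CCI minus SHAM, with its SE for the 5 members and for the genes of assembly and activation (9) and transcription factors (4) that the text describes, not the whole lists. Filled red points passed the test (4, 7 and 4 genes) and open grey points, which include Nox4, Rac1 and Cybc1, did not.

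Genes that feed the enzyme or deal with its products were taken as 4 lists, whose counts are to be read beside the 2.85% called among all tested genes. None of 15 tested genes of NADPH supply passed (median log2 fold change 0.05), among them Aldh1l1 (-0.43, SE 0.11, adjusted p = 0.0875) and Nadk (0.34, SE 0.10, adjusted p = 0.120). None of 21 genes that remove superoxide and peroxide passed (median -0.04), with Gpx4 at -0.39 (SE 0.12, adjusted p = 0.134) and Cat, which encodes catalase, at 0.30 (SE 0.13, adjusted p = 0.308). By edgeR's quasi-likelihood test, the likelihood ratio test, DESeq2 and limma-voom the number called was 0 in both lists. In each of these lists 2 genes had an unadjusted p below 0.05. Of 18 genes of the NRF2 response to oxidants 1 was called higher by edgeR's quasi-likelihood test, and 5 had an unadjusted p below 0.05. The called gene was the cystine transporter gene Slc7a11 (1.06, SE 0.19, adjusted p = 0.0292), which has fractional counts. It lost its call without CCI 3 (adjusted p = 0.11), without SHAM 1 and without SHAM 2. The call was also lost with the Schwann cell covariate (log2 fold change 0.79, adjusted p = 0.144) and on the per-length table with no filter (adjusted p = 0.0666). Of 8 genes of proton and charge balance 1 was called higher by edgeR's quasi-likelihood test, and 3 had an unadjusted p below 0.05. The called gene was Trpm2, a cation channel gated by oxidative stress (0.95, SE 0.16, adjusted p = 0.0202). Trpm2 was at 75.0 CPM in CCI 1, 102 CPM in CCI 2 and 71.4 CPM in CCI 3, against 44.1 CPM in SHAM 1 and 41.3 CPM in SHAM 2, without overlap and again highest in CCI 2. Its call was lost without SHAM 1 and without SHAM 2 (adjusted p = 0.245 in both), with the Schwann cell covariate (log2 fold change 0.95, adjusted p = 0.144) and on the per-length table with no filter (adjusted p = 0.0509).

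Over these 8 lists, 15 of 110 distinct tested genes were called, all of them higher in CCI, which is 13.6% beside 2.85% of all tested genes. Without SHAM 1 the number was 5, and without SHAM 2 it was 5, with Vav1, Fgr and Spi1 called in both. The lists were chosen with earlier results of these data known, and no test over a list was made.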

How the data were processed

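Total RNA of dorsal horn was analysed in 3 CCI and 2 SHAM libraries, grouped by their treatment label; numbers within a group are accession order. Per the submitters' processing notes, the deposited estimated counts by gene symbol come from kallisto (version 0.44.0) with rn6 as the build; which annotation was used is not given in the sources used here. The authors also deposited a table they call TPM, handled here as a signal per transcript length, since its columns sum to 903964 to 1050114.

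Estimated counts were made whole by rounding, and filterByExpr (minimum count 10) kept 13478 of 17321 genes. The test was edgeR's (version 4.0.16, R 4.3.3): TMM factors, robust quasi-likelihood fit, a two-sided F test, and Benjamini-Hochberg adjustment across every gene kept. The F test used 3 residual degrees of freedom plus prior ones that the fit estimates over all genes. An SE is the size of the log2 fold change over the square root of its F. The script was first tested on simulated data. Fractional counts, a sign of reads shared with another row, occurred in 20.5% of the genes tested and 18.0% of those called. These shares count a fraction of any size, also ones too small to matter. Replicate libraries differed by more than sampling noise. Chi-square per degree of freedom was 19.7 for SHAM 1 with SHAM 2 and 21.5 for CCI 1 with CCI 2. It was higher for the pairs with CCI 3, at 199 with CCI 1 and 233 with CCI 2.

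Other settings tried were edgeR's likelihood ratio test, limma-voom (limma 3.58.1), DESeq2 (version 1.42.0), other scalings and filters, limma on the TPM table, ribosomal rows removed, 13 Schwann cell markers as a covariate, and each library left out; a pseudocount of 0.5 in ratios to Cybb was added after seeing the data.

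The members and lists were chosen with earlier results of these data known. The text names all members, up to 4 called genes per list by p (or the 2 uncalled genes with the smallest p), the 3 genes most like each member, and those it says were named after their values were seen. Some genes of these lists count in the totals but are not reported here by name. Promoter coordinates are those of GRCr8. Figures were drawn with matplotlib 3.10.9.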

Additional observations from a re-analysis of the deposited data

How the results depend on the processing

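Each member kept its direction in the 17 alternatives, except Nox4 with the Schwann cell covariate (log2 fold change -0.013). Of the 17, 14 called Cybb (range 2.02 to 2.60), 11 called Cyba (1.40 to 2.12), 14 called Ncf1 (0.61 to 0.90), 15 called Ncf4 (2.27 to 3.37) and none called Nox4 (-0.01 to 0.94). Leaving out each library in turn gave 2.02 to 2.60 for Cybb, 1.40 to 2.12 for Cyba, 0.71 to 0.90 for Ncf1, 2.91 to 3.28 for Ncf4 and 0.42 to 0.94 for Nox4, and 0 to 4 members called. With the Schwann cell covariate 1 member was called, and Cybb (2.25), Cyba (1.63) and Ncf1 (0.61) lost their calls. On the TPM table Cyba lost its call, at 1.70 (pseudocount 0.5), 1.73 (pseudocount 0.1) and 1.70 (no filter). The causes of these lost calls were not tested. The number of all genes called was 384, and it was 698 (621 higher, 77 lower) with the likelihood ratio test, 614 (545 higher, 69 lower) with DESeq2, 180 (all higher) with the covariate and 61 to 763 without each library in turn. The number of pathway genes called ranged from 5 to 19 without each library, against 15. The 9 ratios kept their sign in each alternative run. Of the genes named, few counts limit Ncf4 in SHAM. No paired analysis was possible because the labels give no replicate numbers that tie CCI to SHAM libraries.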

Other observations

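The other oxidases of the NOX and DUOX family were near the limit of detection in this tissue. Nox1 had 2.04 to 7.15 estimated counts per library, Nox3 1 to 7, Duox2 4 to 8.24, and the NOX1 partners Noxo1 4 to 11 and Noxa1 5 to 9, so none of these was tested. Duox1, which had 15 to 37.8 estimated counts, some of them fractional, was at 1.11 CPM in CCI 1, 1.51 CPM in CCI 2 and 1.27 CPM in CCI 3, against 0.682 and 1.15 CPM in SHAM. Its change was 0.51 on the log2 scale (SE 0.39, edgeR adjusted p = 0.546). Poldip2, which encodes a partner of p22phox and NOX4, had a log2 fold change of -0.22 (SE 0.11, edgeR adjusted p = 0.363).

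Other sources of oxidants gave no call in the test of all 5 libraries. Of 12 such genes 9 were tested, of which 2 had an unadjusted p below 0.05, and the likelihood ratio test, DESeq2 and limma-voom called 0, 1 and 0. Dao, which encodes D-amino acid oxidase, a peroxide-making enzyme of astrocytes, was at 40.0 CPM in CCI 1, 31.7 CPM in CCI 2 and 27.8 CPM in CCI 3, against 53.9 and 45.4 CPM in SHAM (log2 fold change -0.58, SE 0.16, edgeR adjusted p = 0.117). It was called lower by DESeq2 (-0.59, adjusted p = 0.0307) and by edgeR without CCI 1 (-0.74, adjusted p = 0.0166). Nos3, the endothelial nitric oxide synthase gene, had a change of 0.36 (SE 0.16, edgeR adjusted p = 0.302) and fractional counts. Nos2, the inducible nitric oxide synthase gene, had 22.6 estimated counts in CCI 2, 2 in each of CCI 1 and CCI 3, and 2 and 8 in the SHAM libraries.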
